A study of Mus musculus with 4 samples.

Results

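The keratin genes were followed in 4 RNA sequencing libraries of mouse mammary cells. The 45 members were listed by symbol, and 44 of them matched a row among the 54393 rows of the deposited gene table through their Ensembl identifiers (Krt85 was not analysed here). Of these 44 genes, 29 passed the filter on low counts, as did 18917 genes in all, and 15 were not tested. The conditional knockout (cKO) libraries came from iK14-Cre; DNp63 f/f mice, in which tamoxifen (1.5 mg/ml) deletes ΔNp63, the p63 isoform of basal epithelial cells, from an inducible Cre under keratin 14 control. Tamoxifen was given at puberty, at 4 weeks of age, and glands were taken 10 days or 5 weeks later. The wild-type (WT) libraries were taken at the same times, and the labels attach the same tamoxifen induction and the same gland source to them, without saying which of these alleles the WT animals carried. A genotype thus had 1 library per time point and n = 2 in all, and nothing in the labels says whether animals were pooled. The labels also name gland ages of 5 and 35 weeks, and 35 weeks does not follow from the induction scheme. Because Krt14 is itself a member, the deletion was directed to cells that use one of the genes described here.

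Keratins are the intermediate filament proteins of epithelia. A filament forms from pairs of an acidic type I and a basic to neutral type II keratin, so cells express members of both types together. In the mammary gland the outer basal (myoepithelial) layer is known for Krt5 and Krt14, and the inner luminal layer for Krt8, Krt18 and Krt19. Stratified epithelia such as epidermis add further keratins as cells leave the basal layer, and injured or fast-growing epithelia switch on an inducible set.

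The deposited gene counts summed to 31714181 and 34230566 in the cKO libraries and to 33363255 and 79122250 in the WT libraries at 10 days and 5 weeks. Levels are given as CPM, which sets a gene's count against the library total, on library sizes scaled by TMM, where 1 count is worth 0.0130 to 0.0315 CPM. Trp63, counted over all its isoforms and thus no direct check of the deletion, stood at 12.8 and 25.5 CPM in cKO at 10 days and 5 weeks, against 46.8 and 160.5 CPM in WT. The libraries were labelled as mammary epithelial cells and held epithelial transcripts (Epcam at 572.2 to 841.9 CPM), but 6 fibroblast markers summed to 24109 and 48955 CPM in cKO and to 34785 and 21659 CPM in WT at 10 days and 5 weeks. Col3a1 alone made up 7365 and 19638 CPM of this in cKO and 13514 and 7054 CPM in WT. In such mixed bulk samples fewer cells of a type and less RNA per cell cannot be told apart.

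The summed keratin level differed between the genotypes mainly in the basal, inducible and stratified classes, and far less in the simple class. Levels of different genes were compared per kilobase of exon. The 3 basal keratins together stood at 297.5 and 319.0 CPM per kb in cKO at 10 days and 5 weeks, against 1495 and 7842 CPM per kb in WT. They made up 6.43% and 8.94% of the summed keratin level in cKO, and 25.4% and 57.0% in WT. The 4 inducible keratins stood at 244.4 and 171.7 CPM per kb in cKO, against 760.9 and 2161 in WT. The 13 stratified and cornifying keratins were at 18.5 and 43.1 CPM per kb in cKO and at 109.2 and 435.6 in WT. In contrast, the 6 simple epithelial keratins were at 4060 and 3027 CPM per kb in cKO and at 3505 and 3309 in WT, so the genotypes overlapped. As a share of the keratin level they made up 87.8% and 84.9% in cKO, against 59.7% and 24.1% in WT. All members together reached 4624 and 3566 CPM per kb in cKO and 5874 and 13753 in WT, with the WT library at 5 weeks far above the rest.

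**Figure D1:**
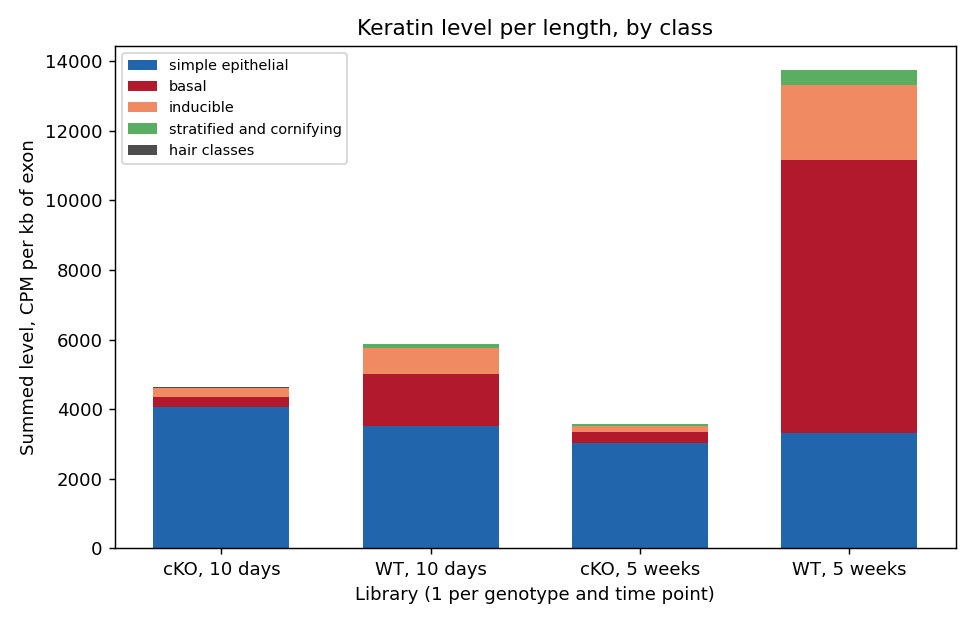
Stacked bars give the summed level of each keratin class in CPM per kb of exon for each of the 4 libraries, 1 library per bar. The simple class is of similar height in all 4 bars (3027 to 4060), and the basal class is near 300 in both cKO bars but 1495 and 7842 in the WT bars at 10 days and 5 weeks.

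The order of single genes differed as well. In cKO the order of levels per kb was Krt8, Krt18, Krt19, Krt14 and Krt17 at both time points, and Krt8 alone held 37.9% and 34.3% of the keratin level at 10 days and 5 weeks. In WT at 10 days the order was Krt8, Krt18, Krt14, Krt19 and Krt5. In WT at 5 weeks it was Krt14, Krt5, Krt8, Krt6a and Krt18, with 26.9% for Krt14 and 25.9% for Krt5. Krt14 and Krt5, at 3703 and 3562 CPM per kb in that library, were close to each other, as were Krt6a and Krt18 (1022 and 1019). With 1 library for each genotype and time point, neighbours in these orders have no spread to be judged by. The balance of the filament partners was much steadier than the class makeup: type I genes held 58.4% and 59.7% of the keratin level in cKO and 60.3% and 55.7% in WT.

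The genotype comparison was tested over all genes with time point held constant (edgeR quasi-likelihood, Benjamini-Hochberg adjusted p under 0.05). Of the 29 tested keratins, 3 fell in cKO (Krt13, Krt6b and Krt15) and 0 were higher, where 0.0529% of all tested genes fell and 0.00529% were higher. That is 10.3% of the tested keratins, against 0.0581% of all tested genes called in either direction. At an unadjusted p under 0.05 there were 14 keratins, all lower in cKO, or 48.3% of those tested, against 5.8% of all tested genes that were lower at that level and 11.6% in either direction. In 16 of the 29 both cKO values lay below both WT values (55.2%, against 23.3% of all tested genes), and in 1, Krt77, both lay above (22.6% of all tested genes). Taken one time point at a time, 17 of the 29 had a lower level in cKO than in WT at both (30.4% of all tested genes), 2 a higher level at both (29.7%) and 10 opposite signs (39.9%). The median log2 fold change of the tested keratins was -1.58, against -0.01 over all tested genes. The filter bears on these counts, since 3 of the tested genes, Krt9, Krt75 and Krt76, had under 10 counts in both cKO libraries and so passed it through WT. Krt12, with 3 and 10 counts in cKO, also passed through WT. All of these genes are among the 14 and the 16, so those shares are raised by the filter. The 3 calls were all lost without the time term and without either cKO library or WT at 5 weeks. Without WT at 10 days Krt6b was still called, with 5 others (Krt4, Krt5, Krt6a, Krt14 and Krt16). The fits without a library, here and below, had genotype as their only term and 1 library in a genotype. The time difference therefore enters their values. DESeq2 called 11 keratins, all lower and including the 3, where it called 2.71% of all tested genes, and limma-voom called 5, where it called 0.153%.

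**Figure D2:**
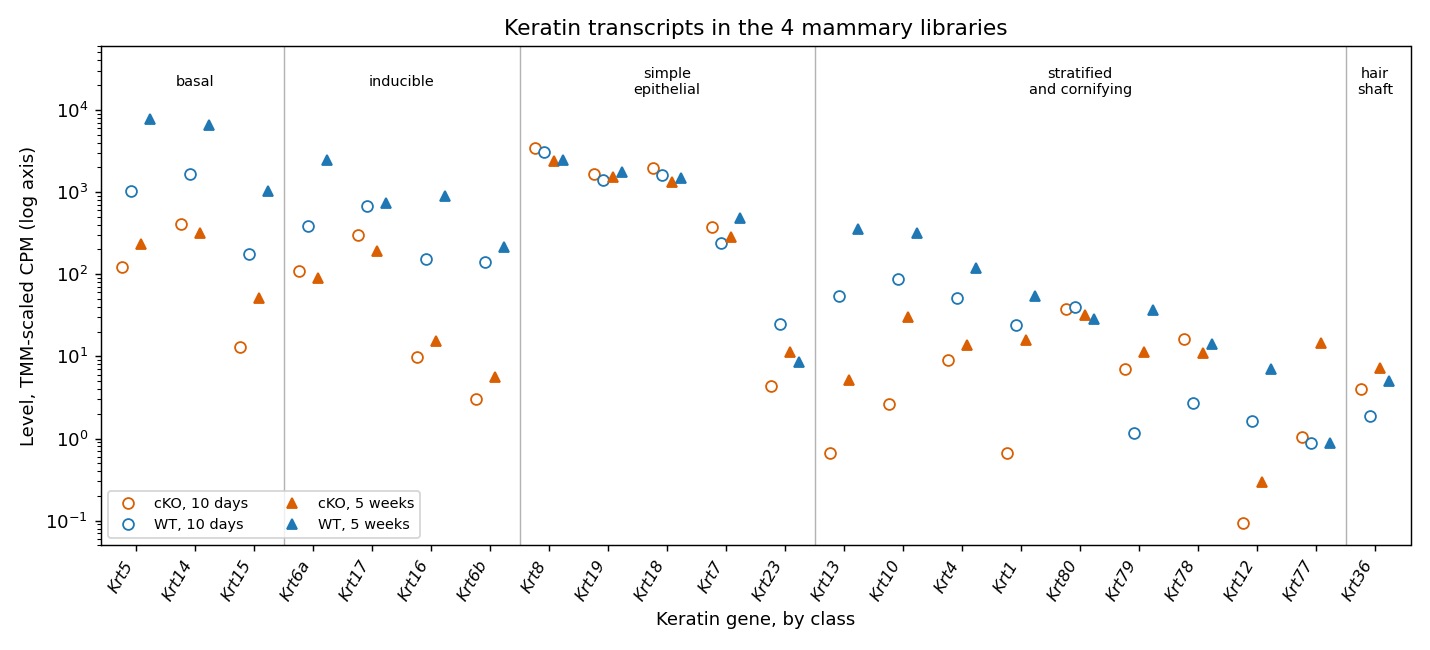
Each point is the level of a keratin gene in 1 library, in TMM-scaled CPM on a log axis, for the 22 genes with at least 5 CPM in some library, grouped by class. For each basal and inducible gene both cKO points lie below both WT points of that gene, as for 23.3% of all tested genes. The 4 points of Krt8, Krt18 and Krt19 lie close together.

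Among the basal keratins the gap was wide at both time points and wider at 5 weeks. Krt15 (ENSMUSG00000054146.8, GRCm38 chromosome 11, 100131758 to 100135928), a type I keratin of basal layers, stood at 13.2 and 51.4 CPM in cKO at 10 days and 5 weeks, against 177.6 and 1020 CPM in WT. It fell in cKO with a log2 fold change of -4.03 (SE 0.294, edgeR adjusted p = 0.0351), although with DESeq2's size factors or upper-quartile factors in edgeR the adjusted p was 0.0530 and 0.0563. When a library was left out, its log2 fold change lay between -5.51 (omitting cKO at 5 weeks) and -2.46 (omitting WT at 5 weeks). Such fits lack the time term, so this range also holds the time difference. Krt5, the basal type II keratin (ENSMUSG00000061527.7, chromosome 15, 101707070 to 101712898), was at 123.0 and 235.8 CPM in cKO and at 1018 and 7826 CPM in WT. Its log2 fold change of -4.05 had an SE of 0.657 and did not pass (adjusted p = 0.215), and without a library it ran from -5.45 (WT at 10 days left out) to -2.50 (WT at 5 weeks left out). Krt14, its type I partner (ENSMUSG00000045545.8, chromosome 11, 100203162 to 100207548), was at 411.5 and 320.9 CPM in cKO against 1637 and 6510 CPM in WT, and did not pass either (log2 fold change -3.17, with SE 0.728, adjusted p = 0.287). The cKO values of all 3 lay below the WT values without overlap, as did those of 23.3% of all tested genes. The partners were not in a fixed proportion: the level of Krt5 per kb was 0.239 and 0.588 of that of Krt14 in cKO, against 0.498 and 0.962 in WT. Set against the luminal type II keratin, the level of Krt5 per kb was 0.0320 and 0.0876 of that of Krt8 in cKO, against 0.294 and 2.83 in WT.

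The promoter sequences of 4 members are shown because these genes lie in classes that differed between the genotypes and differ in their core promoter letters. They are the 200 bases before the RefSeq start on the gene's strand (GRCm38.p6, from RefSeq), with matches to TATAAA or ATAAAAGG in capitals, of which the Krt77 window has none. Krt5 is chr15:101712906-101713105, Krt13 is chr11:100121567-100121766, Krt10 is chr11:99389365-99389564 and Krt77 is chr15:101869706-101869905, all on the minus strand.
Krt5: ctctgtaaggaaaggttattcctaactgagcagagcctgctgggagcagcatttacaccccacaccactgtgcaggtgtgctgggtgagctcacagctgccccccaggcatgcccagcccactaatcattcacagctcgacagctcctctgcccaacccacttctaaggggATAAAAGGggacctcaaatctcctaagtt
Krt13: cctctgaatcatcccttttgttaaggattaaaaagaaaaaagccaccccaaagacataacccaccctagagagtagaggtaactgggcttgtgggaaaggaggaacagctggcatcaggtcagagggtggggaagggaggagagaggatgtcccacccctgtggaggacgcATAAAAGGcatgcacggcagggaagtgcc
Krt10: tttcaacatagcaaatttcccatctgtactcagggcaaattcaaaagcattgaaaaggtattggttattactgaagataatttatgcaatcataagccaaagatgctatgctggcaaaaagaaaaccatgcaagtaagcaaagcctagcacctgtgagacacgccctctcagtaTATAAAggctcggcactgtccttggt
Krt77: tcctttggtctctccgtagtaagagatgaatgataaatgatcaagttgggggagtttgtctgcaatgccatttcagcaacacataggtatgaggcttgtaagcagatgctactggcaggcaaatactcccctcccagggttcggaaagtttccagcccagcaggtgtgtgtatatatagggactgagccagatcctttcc
Of the keratin genes, 30 had such a window (31 windows, since Krt13 has a second start). TATAAA, searched on both strands, was in 13 of the 31 windows, against 9.96% of all 32851 windows of this length, and lay 26 bases before the start in Krt10. ATAAAAGG, chosen after these sequences were seen and overlapping TATAAA where a T precedes it, was in 4 of the 31 (Krt5, Krt13, Krt20 and Krt25) against 1.32% of all windows, and began 29 bases before the start in both Krt5 and Krt13. GCCNNNGGC, a palindrome bound by AP-2 factors, was in 3 (Krt7, Krt9 and Krt18) against 11.8%. The core of the p53 family response element was in 1 window, that of Krt76, against 4.59% of all windows. These are letter matches in a short window and not measured sites.

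The inducible keratins are low in resting epidermis and rise there on wounding, and Krt17 is also known from mammary basal cells. Krt6b (ENSMUSG00000023041.7, chromosome 15, 101676023 to 101680287), type II, stood at 3.05 and 5.66 CPM in cKO at 10 days and 5 weeks, against 142.0 and 214.9 CPM in WT. It fell in cKO with a log2 fold change of -5.39 (SE 0.239, edgeR adjusted p = 0.00998), or 41.9-fold. Its neighbour and close copy Krt6a was at 110.1 and 89.0 CPM in cKO and at 383.7 and 2471 CPM in WT (its log2 fold change was -3.30, with SE 0.973, adjusted p = 0.391). Krt16, their type I partner, was at 9.76 and 15.5 CPM in cKO and at 154.1 and 892.1 CPM in WT (its log2 fold change was -4.92, with SE 0.607, adjusted p = 0.197). Krt17 had the smallest gap of the class, at 296.6 and 190.0 CPM in cKO and 682.9 and 733.0 CPM in WT (its log2 fold change was -1.58, with SE 0.306, adjusted p = 0.220). In all 4 both cKO libraries lay below both WT libraries, as in 23.3% of all tested genes. The ratio of Krt17 to Krt14 per kb was 0.817 and 0.671 in cKO, against 0.473 and 0.128 in WT.

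The split between Krt6a and Krt6b rests on how reads were divided between nearly identical transcripts. Their coding sequences are 97.6% identical in GENCODE M21, and 43.0% of the 31-base words of Krt6b transcripts occur in no other gene, while 50.3% are shared with Krt6a. The longest coding run the pair has in common, 280 bases near the 5′ end (positions 34 to 313 of the Krt6a coding sequence), is printed because a read inside it cannot be assigned by sequence to either gene. It was not found in the coding sequences of Krt5, Krt75 and Krt76.
Krt6a and Krt6b: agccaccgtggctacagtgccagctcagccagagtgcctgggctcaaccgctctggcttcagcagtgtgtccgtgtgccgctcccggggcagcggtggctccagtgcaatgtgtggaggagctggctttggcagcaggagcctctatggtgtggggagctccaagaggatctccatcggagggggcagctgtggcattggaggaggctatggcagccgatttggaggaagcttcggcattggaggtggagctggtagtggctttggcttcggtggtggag
With the counts of the pair summed, the level was 113.1 and 94.6 CPM in cKO and 525.6 and 2686 CPM in WT. The summed pair did not pass (log2 fold change -3.52, with SE 0.822, adjusted p = 0.322), so the Krt6b call stands only on the division of reads as deposited. Krt16 is a comparable case, with 48.1% of its words unique and 32.2% shared with the pseudogene Gm11597. Krt14 had 71.8% unique words and Krt5 87.2%, while Krt13, Krt10 and Krt19 had over 99% (99.8%, 99.7% and 99.6%) and Krt15 96.3%.

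The simple epithelial keratins of the luminal layer stood nearly level. Krt8, the main type II member, was at 3429 and 2398 CPM in cKO at 10 days and 5 weeks and at 3085 and 2467 CPM in WT (its log2 fold change was 0.06, with SE 0.369, adjusted p = 0.972). Krt18, its type I partner, was at 1947 and 1342 CPM in cKO and at 1616 and 1464 CPM in WT (its log2 fold change was 0.07, with SE 0.336). Krt19, a type I keratin of luminal and many ductal cells, was at 1665 and 1521 CPM in cKO and at 1400 and 1773 CPM in WT (its log2 fold change was 0.01, with SE 0.341). These SEs leave room for differences, and a test that misses the threshold does not show equal levels. The ratio of Krt8 to Krt18 per kb lay between 1.24 and 1.40 in all 4 libraries. Krt8 had 67.7% unique words, most of the rest shared with the pseudogene Krt8-ps.

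Other simple keratins varied more from library to library. Krt7, a type II keratin of glandular ducts, was at 374.9 and 283.3 CPM in cKO, inside the WT values of 241.7 and 483.5 CPM. Its log2 fold change was -0.07 (SE 0.404), and its sign turned without WT at 5 weeks (0.45) and without cKO at 5 weeks (0.03). Krt23 was highest in WT at 10 days: it stood at 4.38 and 11.4 CPM in cKO and at 25.1 and 8.43 CPM in WT (its log2 fold change was -1.03, with SE 0.908, adjusted p = 0.737). Krt20, known from intestine and urothelium, did not exceed 1.73 CPM. Of the 6 simple keratins 0 passed and 0 reached an unadjusted p under 0.05, against 0.0581% and 11.6% of all tested genes. The class median log2 fold change was -0.03. The 11 luminal markers outside the keratins summed to 3560 and 3064 CPM in cKO and to 3044 and 2821 CPM in WT. Their median log2 fold change was 0.02 and 0 were called, against 0.0581% of all tested genes. Of the 11 log2 fold changes 5 were below 0, among them those of Cldn7 (-0.44) and Cldn3 (-0.27). The highest was 0.82 for the prolactin receptor Prlr (edgeR adjusted p = 0.387), followed by 0.66 for the progesterone receptor Pgr (edgeR adjusted p = 0.408). Prlr stood at 836.7 and 965.6 CPM in cKO and at 444.8 and 586.4 CPM in WT.

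**Figure D3:**
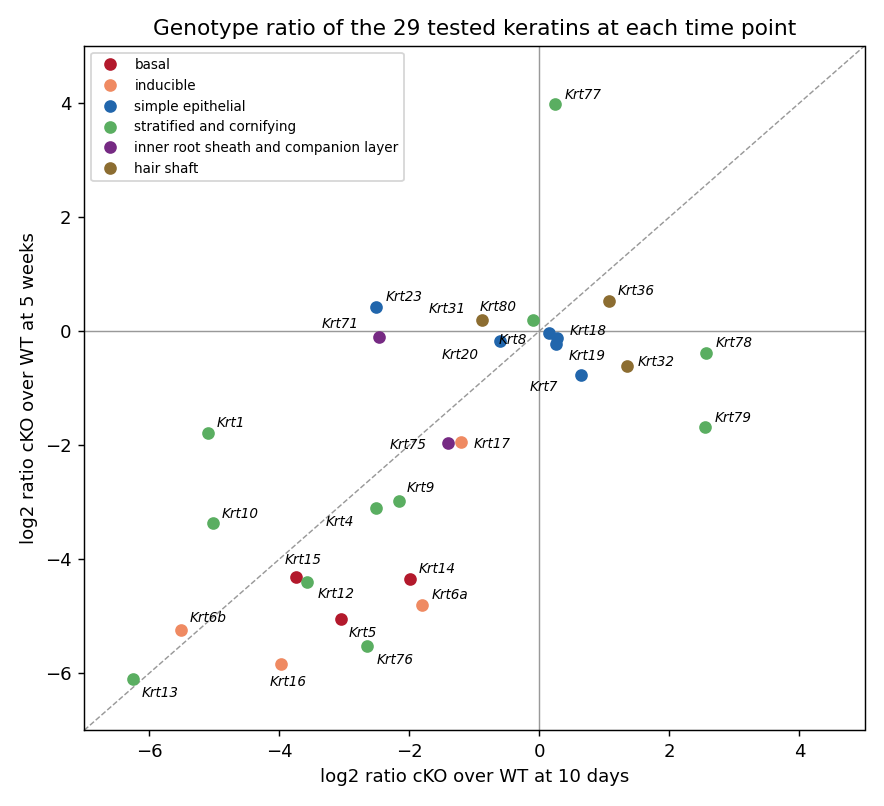
Each point is a tested keratin, placed by its log2 ratio of cKO over WT at 10 days (x) and at 5 weeks (y), each ratio from 1 library per genotype, with equal ratios on the dashed line. Basal and inducible keratins and most stratified ones lie in the lower left, Krt8, Krt18 and Krt19 lie near the origin, and Krt77, Krt78 and Krt79 stand apart.

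Stratified keratins held the lowest log2 fold change of the called members. Krt13 (ENSMUSG00000044041.4, chromosome 11, 100117327 to 100121566), a type I keratin of the moist stratified linings of mouth and oesophagus, stood at 0.66 and 5.15 CPM in cKO at 10 days and 5 weeks, against 54.0 and 357.6 CPM in WT. It fell 74.0-fold in cKO (log2 fold change -6.21, with SE 0.252, edgeR adjusted p = 0.00998). Omitting cKO at 5 weeks gave a log2 fold change of -8.28, and omitting WT at 5 weeks gave -4.21. Krt4, its usual type II partner, stood at 8.91 and 13.8 CPM in cKO and at 50.8 and 119.9 CPM in WT, and narrowly missed the threshold (log2 fold change -2.82, with SE 0.251, adjusted p = 0.0624). The level of Krt4 per kb was 11.5 and 2.29 times that of Krt13 in cKO, against 0.804 and 0.286 times in WT.

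The suprabasal epidermal pair was lower in cKO at both time points, most at 10 days. Krt10, type I, was at 2.64 and 30.5 CPM in cKO and at 87.5 and 315.1 CPM in WT (its log2 fold change was -4.16, with SE 0.518, adjusted p = 0.205). Krt1, type II, was at 0.66 and 15.9 CPM in cKO and at 24.1 and 54.9 CPM in WT (its log2 fold change was -3.24, with SE 1.05, adjusted p = 0.430). The cKO values of both genes lay below the WT values without overlap (23.3% of all tested genes), but neither passed. Without cKO at 5 weeks the log2 fold change of Krt10 was -6.26, and without WT at 5 weeks it was -2.40. Krt12, the corneal keratin, was at 0.09 and 0.29 CPM in cKO and at 1.63 and 7.10 CPM in WT (adjusted p = 0.104). Its cKO count at 10 days was 3, which gives a cKO to WT ratio of 0.0581 at that time point (95% exact interval 0.0116 to 0.179, for counting error only). Krt76, a keratin of palate, had 1 and 0 counts in cKO and 15 and 156 in WT. At 5 weeks its WT level was 23.0 times the limit of 3 counts in the cKO library. The 95% exact interval of the cKO to WT ratio at that time point reached up to 0.0542, for counting error only.

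A few members of the class did not have that pattern. Krt77, a keratin of sweat gland ducts and suprabasal epidermis, stood at 1.04 and 14.6 CPM in cKO and at 0.87 and 0.88 CPM in WT, so a single library, cKO at 5 weeks, was high (log2 fold change 2.30, with SE 1.22, adjusted p = 0.575). Krt79, known from the upper hair follicle and sebaceous duct of the mouse, stood at 7.02 and 11.4 CPM in cKO and at 1.16 and 36.7 CPM in WT. Krt78 was at 16.4 and 10.9 CPM in cKO and at 2.73 and 14.1 CPM in WT. For both the WT library at 10 days was the lowest and the one at 5 weeks among the highest, and neither passed (adjusted p = 0.961 for Krt79 and 0.729 for Krt78). The log2 fold change of Krt79 was 0.30 and ran from -1.99 to 2.98 when a library was left out, on both sides of 0, and that of Krt78 was 1.07 and turned to -0.05 without WT at 10 days. Krt80, a broadly expressed epithelial keratin, ranged only from 28.2 to 40.2 CPM over the 4 libraries (log2 fold change 0.05, with SE 0.215).

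**Figure D4:**
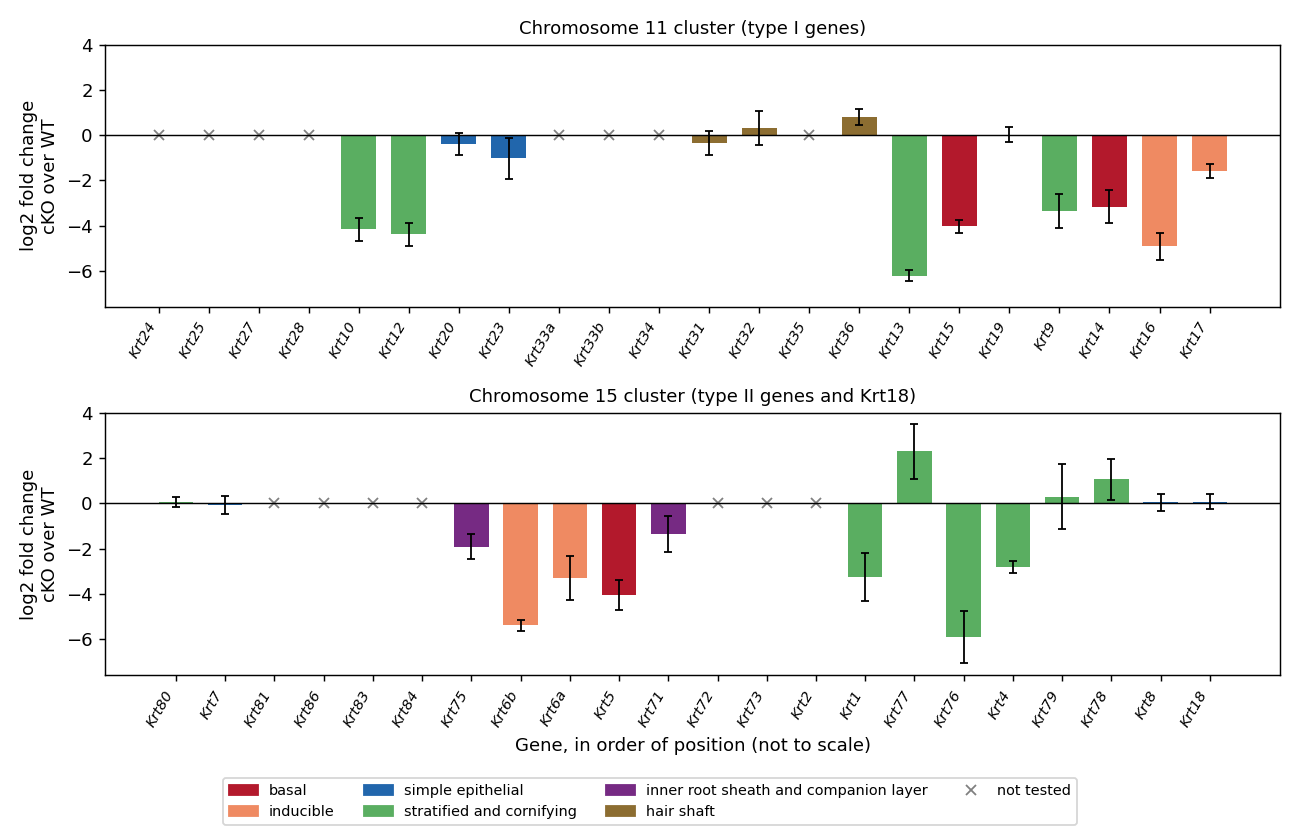
Bars give the log2 fold change of cKO over WT with its SE (4 libraries, time point held constant) for each keratin in order of position, spaced evenly, and crosses mark genes not tested. On chromosome 11 Krt19 (0.01) stands between Krt15 (-4.03) and Krt9 (-3.35), and on chromosome 15 Krt77, Krt79 and Krt78 are above 0 among Krt1, Krt76 and Krt4 below 0, though Krt79 is below 0 with limma-voom, without the time term and without 3 of the libraries in turn, Krt78 is so without WT at 10 days, and the Krt76 and Krt9 bars rest on 1 and 3 cKO counts.

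Neighbours in a cluster did not all have like values. The type I genes other than Krt18 lie on chromosome 11 and the type II genes, with Krt18, lie on chromosome 15. In the run of Krt13, Krt15, Krt19, Krt9, Krt14, Krt16 and Krt17 on chromosome 11, all but Krt19 had log2 fold changes of -1.58 or lower. On chromosome 15 Krt5, Krt6a and Krt6b are neighbours and all had log2 fold changes of -3.30 or lower, while Krt8 and Krt18 at the cluster's end had 0.06 and 0.07 (both were below 0 without cKO at 10 days, and Krt8 also without WT at 5 weeks).

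Most hair keratins had few or no counts. Of the 7 inner root sheath and companion layer keratins, 2 were tested, and of the 11 hair shaft keratins with a row, 3 were tested. Of these 5, 0 passed, against 0.0581% of all tested genes. Krt36, the only one to reach 5 CPM, was at 4.00 and 7.22 CPM in cKO and at 1.89 and 4.97 CPM in WT (its log2 fold change was 0.80, with SE 0.364, adjusted p = 0.475). Krt75, the companion layer keratin, was at 0.16 and 0.27 CPM in cKO and at 0.49 and 1.17 CPM in WT (its log2 fold change was -1.91, with SE 0.557, adjusted p = 0.331). The 22 members that stayed under 5 CPM in every library reached at most 2.03 CPM, the value of Krt76 in WT at 5 weeks. Krt24, Krt34 and Krt72 had 0 counts in all 4 libraries, where 3 counts, the limit that a count of 0 allows, correspond to 0.0390 to 0.0944 CPM. The other untested members, epidermal Krt2 among them (Krt2, Krt25, Krt27, Krt28, Krt33a, Krt33b, Krt35, Krt73, Krt81, Krt83, Krt84 and Krt86) had at most 60 counts over all libraries. Of 8 hair follicle genes outside the keratins, Krtap8-1 was at 0 in all libraries and Krtap3-1, Krtap11-1 and Hoxc13 were at or under 0.09 CPM. The other 4 were measured in every library: Gata3 at 88.8 to 109.8 CPM, Msx2 at 4.94 to 12.9, Tchh at 5.21 to 9.25 and Padi3 at 1.71 to 3.99 CPM.

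The time comparison asked which keratins differ between 5 weeks and 10 days with genotype held constant. Krt13 was the only one of 29 to pass, higher at 5 weeks (log2 fold change 2.82, edgeR adjusted p = 0.0411), where 0.0159% of all tested genes were higher at 5 weeks, 0.0476% lower and 0.0634% called in either direction. That call was lost with either other scaling (adjusted p = 0.0630 and 0.0787) and without any 1 library. At an unadjusted p under 0.05 there were 10 keratins, all higher at 5 weeks, against 3.09% of all tested genes that were higher, 2.27% lower and 5.35% either way. Without the genotype term 2 keratins reached that level, as did 569 of all 18917 tested genes. The median log2 fold change of the 29 keratins was 0.94, with 7 below 0. Leaving out WT at 5 weeks, in a fit that lacks the genotype term, gave a median of -0.57, with 23 below 0. The log2 ratio of 5 weeks over 10 days was 2.88 in cKO and 2.73 in WT for Krt13, and 1.96 in cKO and 2.52 in WT for Krt15. It was 0.88 in cKO and 0.60 in WT for Krt6b. For Krt5, Krt14 and Krt6a the genotypes were further apart. The ratio was 0.94 in cKO and 2.94 in WT for Krt5, -0.36 in cKO and 1.99 in WT for Krt14, and -0.31 in cKO and 2.69 in WT for Krt6a. Krt10 and Krt1 went the other way, with 3.50 and 4.50 in cKO against 1.85 and 1.19 in WT. These ratios each compare 1 library with 1 library, and whether they differ between genotypes was not tested, since 4 libraries leave no residual for it.

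Genes that anchor keratin filaments to desmosomes and other junctions differed less in their median. Of 17 listed anchors and linkers, 1 fell and 0 were higher (0.0529% and 0.00529% of all tested genes), and 7 were lower at an unadjusted p under 0.05, as were 5.8% of all tested genes. The gene that fell was Dsg3, the desmosomal cadherin of basal keratinocytes, at 0.91 and 9.48 CPM in cKO and at 25.1 and 262.6 CPM in WT (its log2 fold change was -4.79, with SE 0.227, edgeR adjusted p = 0.00998). Desmoplakin (Dsp), which ties keratins to the desmosome, was at 195.9 and 199.4 CPM in cKO and at 387.5 and 1239 CPM in WT (adjusted p = 0.327). The linkers Plec and Dst, which also attach keratins to hemidesmosomes, had log2 fold changes of -0.06 and 0.01, and plakoglobin (Jup) of -0.95. Plec and Dst were higher in cKO than in WT at 10 days and lower at 5 weeks. The log2 ratios were 0.53 and -0.64 for Plec, and 0.45 and -0.43 for Dst. The median over the 17 was -0.55, against -1.58 for the tested keratins.

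Markers of other cell types outside the keratins are set beside these values. The 10 epidermal genes outside the keratins summed to 57.8 and 94.3 CPM in cKO and to 168.1 and 744.4 CPM in WT at 10 days and 5 weeks. All 8 of them that were tested had a log2 fold change below 0, where the median over all tested genes was -0.01. The filter raises this count, since Lor (5 counts in each cKO library) and Ivl (3 and 6 counts) passed it through WT. Of the 8, 1 (Krtdap) fell, as did 0.0529% of all tested genes. Flg and Lor stayed at or under 0.57 CPM in every library. Of the other cornified envelope genes, Sprr1a stood at 18.1 and 27.7 CPM in cKO and at 39.9 and 317.4 CPM in WT, and Ivl reached at most 2.34 CPM. The 10 basal genes outside the keratins, with Trp63 itself among them, summed to 1959 and 2249 CPM in cKO and to 3456 and 2837 CPM in WT. Of their log2 fold changes 9 of 10 were below 0, with a median of -0.50, and 0 were called, against 0.0581% of all tested genes. Most of these sums came from contractile genes, which such mixed bulk samples cannot assign to basal cells alone. Among them Acta2 had a log2 fold change of -0.43, Myh11 of -0.21, Tagln of -0.56, Mylk of -0.05 and Cnn1 of -0.15. It was 0.06 for the oxytocin receptor Oxtr. Larger differences were found for the others of the list, with -2.26 for Trp63, -2.14 for the cadherin Cdh3, -1.45 for the integrin Itgb4 and -0.88 for Itga6. Acta2, Myh11, Mylk, Cnn1 and Oxtr were lower in cKO than in WT at 10 days but higher at 5 weeks. Such opposite signs were found for 39.9% of all tested genes. The log2 ratios at 10 days and 5 weeks were -1.02 and 0.16 for Acta2, and -0.61 and 0.51 for Mylk. Cdh3 stood at 17.8 and 19.5 CPM in cKO and at 64.4 and 103.9 CPM in WT (edgeR adjusted p = 0.0949). The 5 leukocyte markers summed to 41.0 and 65.8 CPM in cKO and to 23.2 and 25.1 CPM in WT. The part of these cell types in the keratin differences was not tested.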

How the data were processed

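The authors deposited 1 table of estimated counts per gene for 4 libraries (54393 genes), which they made with Salmon against GRCm38, per the submitters' processing notes. Versions, annotation and strand setting are not given in the sources used here. It held 0 columns from other samples, and all values were whole numbers, so none was rounded. Each library came from 100000 sorted cells left after removal of CD45, CD31 and Ter119 positive cells, per the labels' protocols. Symbols, positions and exon lengths (union of exons) came from GENCODE M21. The union is much longer than the longest transcript for Krt7, Krt80, Krt79 and Krt1, which lowers their level per kb.

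A low-count filter (filterByExpr, minimum count 10) kept 18917 genes holding 99.91% of all counts. After TMM scaling, a quasi-likelihood model (robust, edgeR 4.0.16 under R 4.3.3) was fitted to all 4 libraries with time point and genotype as terms, leaving 1 residual degree of freedom (common biological coefficient of variation 0.286). Benjamini-Hochberg adjustment ran over all tested genes. SE is the absolute log2 fold change over the square root of F. For log2 ratios between single libraries a prior count of 2 was added to each gene. The labels do not say that libraries came from separate animals, so the spread between them may be technical. The 1 residual degree of freedom holds how far the genotype ratio differs between the time points. The p-values rest on that difference, together with that of other genes, and not on a spread between replicates. A gap that differed between 10 days and 5 weeks thus had a larger SE than a steady one. The log2 ratios were -3.05 and -5.05 for Krt5, and -6.26 and -6.10 for Krt13. Alternatives used DESeq2 1.42.0 and limma 3.58.1. In a test on simulated data for the genotype comparison (18917 genes), the fit recovered 8 of 50 genes with a 2-fold change. It recovered 43 of 50 with a 4-fold and 50 of 50 with an 8-fold one, and it called 11 of 18717 unchanged genes. The simulation gave every gene the same variation (0.286) and no time difference, and changed only genes with at least 5 CPM. These rates do not carry over to the data, where Krt5 (16.6-fold lower) and Krt16 (30.2-fold lower) did not pass.

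The members, classes and other lists were chosen with earlier results of these data known. Each keratin had 1 class from textbook roles, and members with at least 5 CPM in a library were described with all 4 values. Promoter windows came from RefSeq (GRCm38.p6). Intervals and count limits cover counting error only. Time point acts as the block that pairs a cKO with a WT library.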

Additional observations from a re-analysis of the deposited data

Results flagged for a closer look

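For 10 of the 29 tested keratins the log2 ratio of cKO over WT had opposite signs at the time points, as it had for 39.9% of all tested genes. The difference between the time points (5 weeks minus 10 days) was not tested, because each ratio compares 1 library with 1 library. It was large for Krt79 (-4.23, from ratios of 2.55 at 10 days and -1.68 at 5 weeks), Krt78 (-2.94, from 2.56 and -0.38) and Krt23 (2.94, from -2.51 and 0.43). It was -1.97 for Krt32 and 1.07 for Krt31, both of which had at most 53 counts in a library, and -1.40 for Krt7. For Krt8 (-0.19), Krt18 (-0.39), Krt19 (-0.47) and Krt80 (0.28) it was smaller.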

How the results depend on the processing

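The number of keratins called for genotype was 3, and it was 2 with DESeq2's size factors, with upper-quartile factors and with Krt6a and Krt6b summed. It was 14 without the low-count filter (13 lower, with Krt77 higher), 11 with DESeq2, 5 with limma-voom and 0 with no replicate block, that is without the time term (13 at an unadjusted p under 0.05). Leaving out 1 library, with genotype alone in the fit, gave 0 to 6. Over all genes the genotype count of 11 became 5 with DESeq2's size factors, 3 with upper-quartile factors, 1235 without the filter, 512 with DESeq2, 29 with limma-voom and 0 with no replicate block (2182 at an unadjusted p under 0.05), and 0 to 60 without a library. For time the keratin count of 1 became 0 with both other scalings and with no replicate block, 8 without the filter, 5 with DESeq2, and was 0 without any 1 library. The count over all genes of 12 became 638 without the filter, 192 with DESeq2, 39 with limma-voom and 1 with no replicate block, and 0 to 18 without a library. The time effect of Krt13 was 2.82 and ran from -2.41 without WT at 5 weeks, a reversal, to 8.10 without WT at 10 days, in fits that lack the genotype term. The log2 fold changes for genotype of all 14 keratins with an unadjusted p under 0.05 stayed below 0 under all alternatives that gave a value. The log2 ratio of basal to simple keratins was -3.77 in cKO and -1.23 in WT at 10 days, and -3.25 in cKO and 1.25 in WT at 5 weeks. With the longest transcript as length it was -3.80 in cKO and -1.26 in WT at 10 days, and -3.29 in cKO and 1.18 in WT at 5 weeks. With no division by length it was -1.17 in WT at 10 days, -3.19 in cKO at 5 weeks and 1.31 in WT at 5 weeks. The causes were not tested. The values of Krt76, Krt9, Krt12 and Krt75 rest on cKO counts of 10 or fewer in each library.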
